A study of Mus musculus with 8 samples.

Results

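The MHC class II genes were followed in RNA sequenced from mouse colonic mucosa. The 7 genes H2-Aa, H2-Ab1, H2-Eb1, H2-DMa, H2-DMb1, Cd74 and Ciita were taken by symbol from the 17353 genes of the deposited tables, and all 7 had enough reads to be among the 13381 genes tested. The 8 libraries came from 8 male wild-type C57BL/6J mice, with 2 animals in each of 4 groups, all sampled on day 7 after enemas of 0.2 ml. The Kuiyangling group took 3% dextran sulfate sodium (DSS), a polysaccharide that damages the colonic epithelium, and received the herbal preparation Kuiyangling at 10 g/kg. Mice of the mesalazine group took the same DSS and were given 50 mg/kg of this aminosalicylate, a standard drug for ulcerative colitis. The DSS model group took DSS and received saline, and the control group received saline without DSS. The labels call the samples colonic mucosa, and 11 of 11 epithelial markers were detected in all 8 libraries.

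MHC class II molecules carry peptides from ingested or captured material to the cell surface, where CD4+ T cells read them. B cells, dendritic cells and many macrophages make them continuously, and interferon gamma can switch them on in other cells, among them intestinal epithelium. H2-Aa and H2-Ab1 encode the alpha and beta chains of the I-A molecule, and H2-Eb1 encodes the beta chain of I-E, a molecule that C57BL/6 mice do not display because their alpha chain gene H2-Ea is defective. Cd74 is the invariant chain, which fills the peptide groove during assembly. H2-DMa and H2-DMb1 form the editor that removes its last fragment and lets peptides in. Ciita is the coactivator that turns the whole set on, through factors bound to a conserved X and Y box unit in the promoters.

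The promoters of 3 members are shown because their windows hold letters of that unit. H2-DMa, whose windows hold letters of a Y box only, is not shown. A link between these letters and the levels of the genes was not tested. They are RefSeq windows of build GRCm38.p6, running 5′ to 3′ on the gene's own strand from 250 bases before the start to 50 after it. Capitals mark matches to 3 words, searched on both strands. CTAGNAACTGATGATGCT, where N is any base, is the longest stretch that the H2-Eb1 and H2-DMb1 windows share with at most 1 mismatch, and it spans the X box. TGACGTCA holds the letters of a CREB site, and GATTGG those of a Y box, read as CCAATC on the other strand. The words do not overlap in these windows. H2-Aa lies on the minus strand at chr17:34287774-34288073, H2-Eb1 on the plus strand at chr17:34305617-34305916 and H2-DMb1 on the plus strand at chr17:34152941-34153240.
H2-Aa: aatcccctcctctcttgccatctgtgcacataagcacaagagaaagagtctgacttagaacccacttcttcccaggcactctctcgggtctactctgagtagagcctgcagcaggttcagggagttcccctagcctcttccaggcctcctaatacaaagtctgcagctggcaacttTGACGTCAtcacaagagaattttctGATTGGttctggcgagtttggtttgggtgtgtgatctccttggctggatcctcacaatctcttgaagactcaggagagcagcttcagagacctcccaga
H2-Eb1: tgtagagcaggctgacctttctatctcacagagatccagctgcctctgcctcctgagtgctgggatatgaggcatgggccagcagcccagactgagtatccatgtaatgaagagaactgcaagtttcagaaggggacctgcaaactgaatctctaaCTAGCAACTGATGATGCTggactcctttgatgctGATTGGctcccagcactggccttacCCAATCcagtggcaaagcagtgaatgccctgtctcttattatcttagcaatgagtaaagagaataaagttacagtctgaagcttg
H2-DMb1: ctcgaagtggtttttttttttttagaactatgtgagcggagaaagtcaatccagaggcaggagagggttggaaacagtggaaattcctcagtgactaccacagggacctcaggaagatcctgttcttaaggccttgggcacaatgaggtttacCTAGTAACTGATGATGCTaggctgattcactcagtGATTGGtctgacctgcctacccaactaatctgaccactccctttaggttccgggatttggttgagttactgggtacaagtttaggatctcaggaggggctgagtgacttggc
In H2-Eb1 the X word began at position -94 from the start and a Y word at -60, with a reversed Y word at -35. In H2-DMb1 the same words began at -97 and -62. H2-Aa held the CREB word at -74 and the Y word at -49, without an exact X word. The X word was in 0.00609% (2) of 32851 RefSeq promoter windows, the CREB word in 1.79% and the Y word in 16.1%. The Y word was in all 4 members with a window, at -199 in 1 of the 2 windows of H2-DMa, and in all 8 class II genes with one. The words were chosen with these windows in view, the X word from 2 of them, and a match describes letters, not bound factors. H2-Ab1, Cd74 and Ciita are named only.

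The libraries held 15560946 to 17843715 counts, so that 3 counts correspond to 0.149 to 0.212 CPM (counts scaled to a common library size, adjusted by TMM, a correction for composition). Mean Spearman correlation of a library with the other 7 across genes was 0.962 for control 2, 0.963 for mesalazine 1 and 0.972 to 0.979 for the rest. Ribosomal protein genes took 12.7% of counts in mesalazine 1 and 3.35% to 6.68% in the other libraries. The labels do not say that animals of 1 replicate number are matched.

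All 7 class II genes were lowest in control 1, highest in control 2, and between these in all 6 libraries from DSS-treated mice. Cd74, the most abundant member, had 96.2 and 92.1 CPM with Kuiyangling, 70.4 and 76.8 CPM with mesalazine, 98.1 and 147 CPM in the DSS model, and 53.8 and 1104 CPM in controls 1 and 2. The 6 libraries from DSS-treated mice thus lay between 70.4 and 147 CPM, and the 2 control animals lay outside that range on opposite sides. In bulk tissue fewer cells of a type and less RNA per cell cannot be told apart. Of all genes tested, 1.67% (223) had control 1 below and control 2 above all 6 DSS libraries, and 0.949% (127) had the reverse order.

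The I-A pair and H2-Eb1 showed the same order. H2-Aa had 50.4 and 39.5 CPM with Kuiyangling, 42.7 and 38.6 CPM with mesalazine, 33.0 and 72.3 CPM in the DSS model, and 22.2 and 416 CPM in controls 1 and 2. H2-Ab1, its partner, had 44.0 and 34.8 CPM with Kuiyangling, 37.1 and 35.4 CPM with mesalazine, 46.9 and 78.8 CPM in the DSS model, and 22.6 and 413 CPM in controls 1 and 2. H2-Eb1, the I-E beta chain gene, had 32.6 and 25.2 CPM with Kuiyangling, 31.0 and 25.3 CPM with mesalazine, 29.3 and 43.5 CPM in the DSS model, and 16.9 and 188 CPM in controls 1 and 2. For H2-Aa the DSS model animals spanned all 4 treated libraries, whereas for H2-Ab1 both stood above all of them.

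The peptide editor and the coactivator were scarcer. H2-DMb1 had 6.56 and 5.35 CPM with Kuiyangling, 6.51 and 4.90 CPM with mesalazine, 8.11 and 17.1 CPM in the DSS model, and 2.87 and 61.4 CPM in controls 1 and 2. H2-DMa had 12.2 and 8.0 CPM with Kuiyangling, 10.8 and 8.46 CPM with mesalazine, 11.8 and 17.0 CPM in the DSS model, and 6.09 and 40.6 CPM in controls 1 and 2. H2-DMb1 has a near-identical neighbour, H2-DMb2, so its reads are uncertain, and H2-DMa overlaps Brd2 in RefSeq. Brd2 itself was at 171 and 164 CPM in controls 1 and 2. Ciita had 3.90 and 3.01 CPM with Kuiyangling, 2.05 and 3.15 CPM with mesalazine, 5.03 and 10.9 CPM in the DSS model, and 1.24 and 34.5 CPM in controls 1 and 2. Both DSS model animals were above all 4 treated animals for Ciita and H2-DMb1, as for H2-Ab1 and Cd74. The share of all genes with this order was not counted. Both Kuiyangling libraries lay below both model libraries for 21.1% of all genes tested, and both mesalazine libraries for 13.8%.

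**Figure D1:**
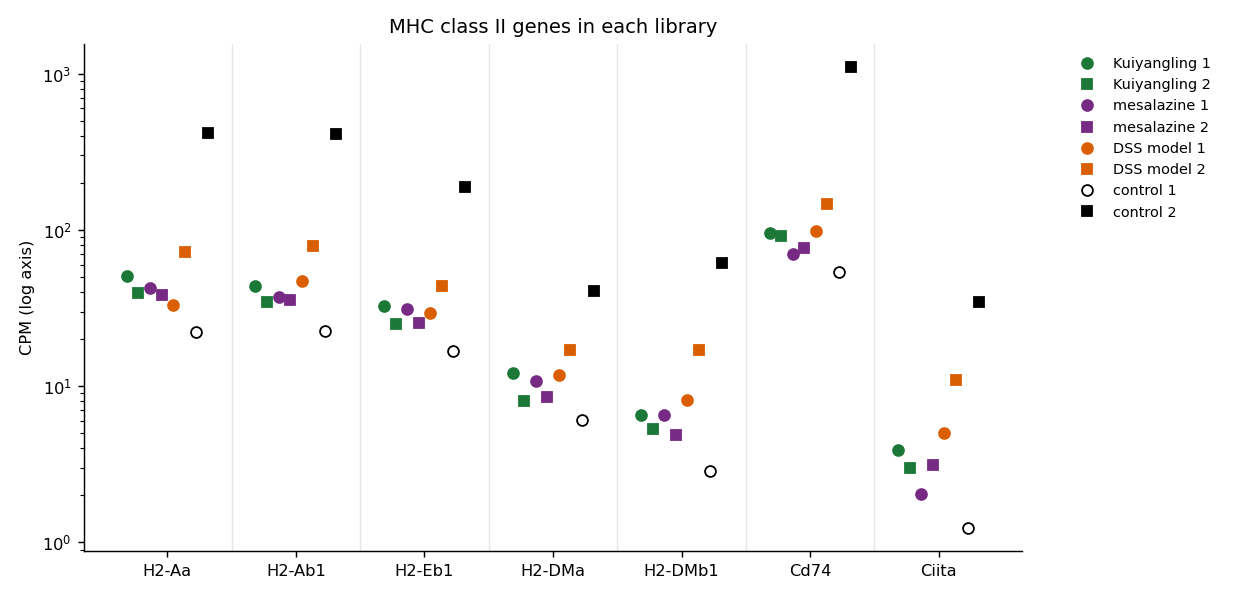
Level of each of the 7 class II genes (CPM, log axis) in every library, with each point 1 animal and the groups drawn separately. For all 7 genes control 1 is the lowest point and control 2 the highest, with the 6 libraries from DSS-treated mice between them.

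The 2 controls differed 6.67-fold to 27.9-fold across the 7 genes, with a median of 18.7-fold. The ratio of control 2 to control 1 was 27.9 for Ciita (95% exact binomial interval 18.7 to 43.5), from 25 and 560 counts in controls 1 and 2. For Cd74 it was 20.5 (19.3 to 21.8), from 1086 and 17910 counts, and for H2-DMa 6.67 (5.49 to 8.15), from 123 and 659 counts. Those intervals cover counting error only, and no test sets 1 animal of a group against the other. Across 13343 genes tested with counts in control 1, this ratio had a median of 0.979 and a 2.5 to 97.5 percentile range of 0.356 to 3.79, and 1.2% of genes tested had a ratio at least as high as that of H2-DMa. Within the 6 DSS libraries the highest value was 1.73 times the lowest for H2-Eb1 and 5.33 times for Ciita. DSS model 2 exceeded DSS model 1 for all 7 genes, by 1.44-fold for H2-DMa to 2.19-fold for H2-Aa.

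The deposited FPKM values, which divide by gene length, allow the members to be set against each other. Cd74 was highest in all 8 libraries, at 68.6 and 71.1 FPKM with Kuiyangling, 41.5 and 56.6 FPKM with mesalazine, 65.1 and 100.6 FPKM in the DSS model, and 43.0 and 788 FPKM in controls 1 and 2. Ciita and H2-DMa were the lowest, at 0.143 to 3.57 FPKM for Ciita and 0.828 to 4.93 FPKM for H2-DMa over the 8 libraries. The deposited lengths differ from GENCODE exons, with 8325 against 3448 bases for H2-DMa, 1128 against 3798 for H2-Aa and 1193 against 2568 for H2-Ab1. Cd74 stood at 157 to 225 per 100 FPKM of H2-Ab1, H2-Aa at 74.4 to 122 and H2-Eb1 at 32.6 to 59.7. With GENCODE lengths, an alternative chosen after seeing the data, these would be multiplied by 1.81 for Cd74, 0.639 for H2-Aa and 1.85 for H2-Eb1 in every library. Over the libraries the proportions to H2-Ab1 varied by 1.43-fold for Cd74, 1.64-fold for H2-Aa, 1.71-fold for H2-DMb1, 1.83-fold for H2-Eb1 and 2.54-fold for Ciita. The CPM of single members varied by 6.67-fold for H2-DMa and by more for the others. H2-DMa was not set against H2-Ab1. H2-DMa per 100 FPKM of H2-DMb1 varied 3.20-fold, with 32.7 in control 1 the highest and 10.2 in control 2 the lowest. Ciita per 100 FPKM of H2-Ab1 was 1.08 and 1.06 with Kuiyangling, 0.675 and 1.09 with mesalazine, 1.31 and 1.70 in the DSS model, and 0.668 and 1.02 in controls 1 and 2, so that both DSS model libraries held the highest shares.

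Every member correlated with the mean of the other 6. Pearson r of log2 CPM was 0.957 for Ciita to 0.998 for H2-Ab1 over 8 libraries, and 0.884 for H2-Aa to 0.996 for H2-Ab1 over the 7 libraries without control 2. Among 10195 genes averaging 5 CPM or more, the pattern over 8 libraries was most like that of Gbp8 (r = 0.979), Dusp5 (0.978), Ubd (0.978), Ctif (0.958), Abhd12 (0.955), Gbp5 (0.952), Rac2 (0.949), Stk25 (0.941), Gzmb (0.938) and Dcaf15 (0.935). Without control 2 the 10 most alike were Mpeg1 (0.981), Ptges3 (0.965), Ido1 (0.958), Ap3s1 (0.958), Slc35f6 (0.956), Rala (0.955), Plek2 (0.954), Acot9 (0.954), Elavl1 (0.954) and Metrnl (0.952), and no gene was on both lists. These values describe 8 or 7 libraries in which all genes share depth and composition.

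The first comparison asks whether DSS altered class II expression relative to mice without DSS. By edgeR's quasi-likelihood test, with p adjusted by Benjamini-Hochberg and a threshold of 0.05, no member was called, against 0.247% (33) of all genes tested. Log2 changes of the DSS model against control were -2.24 for Cd74 (SE 0.93, n = 2 each, edgeR adjusted p = 0.312), -2.06 for H2-Aa (SE 0.93, edgeR adjusted p = 0.340) and -0.70 for H2-DMa (SE 0.66, edgeR adjusted p = 0.610). The median of the 7 genes was -1.50, against -0.04 over all genes tested. In this comparison 1 member, Cd74, had an unadjusted p under 0.05, as had 1987 of all genes. DESeq2 called no member, against 435 of 17353 genes. By limma on log2(FPKM + 1) no member was called either, against 18 of 11073 genes. For none of the 7 were both model libraries on 1 side of both controls. Of all genes tested, 27.1% had both model libraries above both controls and 26.3% had both below.

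Each control was then left out in turn. Without control 1, 4 of 7 members (Cd74, H2-Aa, H2-Ab1 and H2-Eb1) were called lower in the DSS model, with log2 changes of all 7 from -3.18 to -1.51 and edgeR adjusted p of 0.0151 to 0.124; 0.529% of 13805 genes were called lower. Without control 2, all 7 changes were above 0, from 1.11 to 2.68, and none was called (edgeR adjusted p of 0.295 to 0.543; 0.00727% of 13759 genes called). In both fits the lone control library is assumed to vary as the other groups do. A difference in calls between these fits therefore does not show which direction holds. The sign of all 7 changes thus depended on which control library was kept.

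Both treated groups were set against the same controls. Kuiyangling against control gave log2 changes of -2.62 for Cd74 to -1.21 for H2-DMa with none called (edgeR adjusted p of 0.349 to 0.623; 0.239% of genes called). Mesalazine against control gave -2.98 for Cd74 to -1.27 for H2-DMa with none called (edgeR adjusted p of 0.143 to 0.323; 0.673% called). In each of these, 6 of 7 members had an unadjusted p under 0.05, as had 1376 of all genes with Kuiyangling and 2675 with mesalazine. DESeq2 called no member, against 349 of 17353 genes with Kuiyangling and 982 with mesalazine. By limma on log2(FPKM + 1) none was called, against 2 of 11073 genes with Kuiyangling and 36 with mesalazine. Without control 1 all 7 were called lower in both, at -3.56 to -2.02 with Kuiyangling (edgeR adjusted p of 0.0079 to 0.0480; 0.826% of genes called lower) and -3.92 to -2.09 with mesalazine (edgeR adjusted p of 0.00437 to 0.0336; 1.62% called lower). Without control 2 all 7 were above 0, at 0.73 to 1.47 with Kuiyangling and 0.45 to 1.07 with mesalazine. These comparisons share the control libraries with that of the DSS model, and their fits with a lone control library have the same limit. The calls without control 1 therefore do not show which direction holds.

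**Figure D2:**
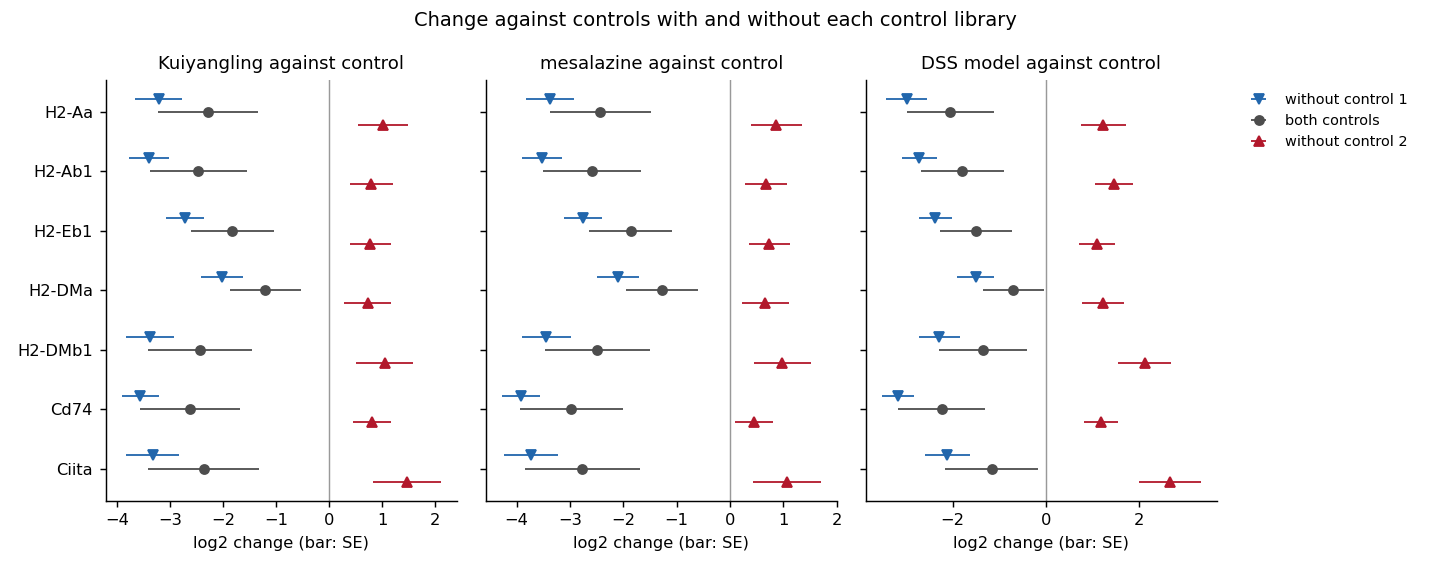
Log2 change of each class II gene against control with all libraries, without control 1 and without control 2, one panel per DSS group, with bars showing the SE. All 7 changes lie below 0 with all libraries and without control 1, and above 0 without control 2.

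The next comparisons ask whether either enema altered class II expression in DSS-treated mice, and they rest on the controls only through the spread shared by all groups. All 7 changes were below 0 with both agents, and none was called, as for 0.0% of all genes. With Kuiyangling against the DSS model, Ciita averaged 3.46 ± 0.628 CPM against 7.99 ± 4.18 CPM (SD, n = 2 each), a log2 change of -1.21 (SE 1.03, edgeR adjusted p = 0.996). The log2 change was -1.08 for H2-DMb1 (SE 0.96), -0.67 for H2-Ab1 (SE 0.88), -0.38 for Cd74 (SE 0.90) and -0.23 for H2-Aa (SE 0.90). The median was -0.51, against 0.00 over all genes. Both Kuiyangling libraries lay below both model libraries for 4 of 7 members, H2-Ab1, H2-DMb1, Cd74 and Ciita, as did 21.1% of all genes.

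With mesalazine against the DSS model, Ciita averaged 2.60 ± 0.778 CPM against 7.99 ± 4.18 CPM (SD, n = 2 each), a log2 change of -1.61 (SE 1.05, edgeR adjusted p = 0.983). For H2-DMb1 it was -1.14 (SE 0.96), for H2-Ab1 -0.79 (SE 0.88), for Cd74 -0.73 (SE 0.90), for H2-Aa -0.37 (SE 0.91) and for H2-Eb1 -0.37 (SE 0.77). The median was -0.73, against 0.04 over all genes. Both mesalazine libraries lay below both model libraries for 5 of 7 members, H2-Ab1, H2-DMa, H2-DMb1, Cd74 and Ciita, as did 13.8% of all genes. No member had an unadjusted p under 0.05 in either comparison, against 476 of all genes with Kuiyangling and 735 with mesalazine. DESeq2 called no member, against 13 of 17353 genes with Kuiyangling and 91 with mesalazine. By limma on log2(FPKM + 1) no member was called, as for 0 of 11073 genes with either agent. Without either control, 2 of 7 members with Kuiyangling and 4 of 7 with mesalazine had an unadjusted p under 0.05, as had 580 of all genes with Kuiyangling and 847 or 852 with mesalazine, and none was called. With only the 4 libraries compared these counts were 3 and 2 members, against 1463 and 580 of all genes, again with none called. Without mesalazine 1, the library rich in ribosomal protein genes, the log2 change of Ciita was -1.35 (SE 1.42, edgeR adjusted p = 0.754). Without DSS model 2, the higher of the model animals, H2-Aa was above 0, at 0.44 with Kuiyangling and 0.30 with mesalazine. With Kuiyangling against mesalazine the changes ran from 0.04 for H2-Eb1 to 0.40 for Ciita with none called (edgeR adjusted p = 0.999 for all 7; 0.0% of genes called; none at an unadjusted p under 0.05), and both Kuiyangling libraries lay above both mesalazine libraries for Cd74 alone, as for 10.6% of genes.

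**Figure D3:**
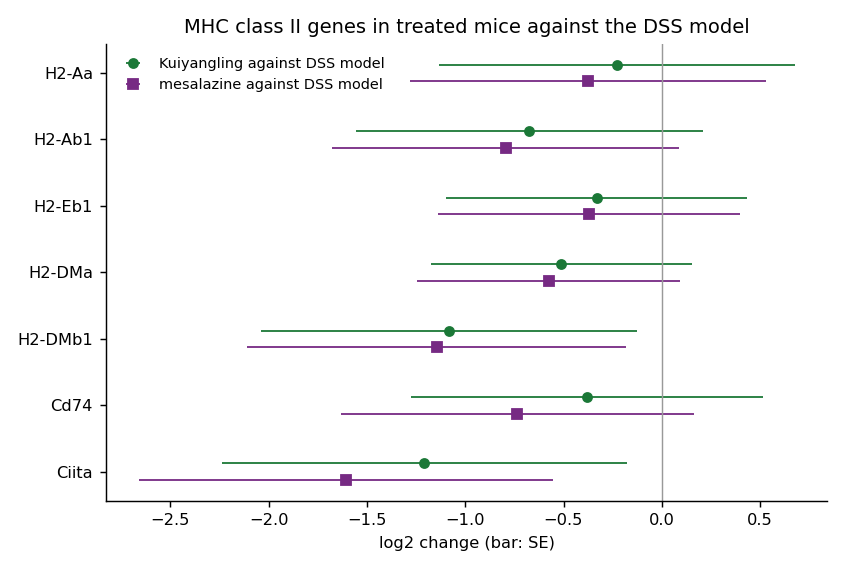
Log2 change of each class II gene with Kuiyangling and with mesalazine against the DSS model, with bars showing the SE. All 14 points lie below 0, from -1.61 for Ciita with mesalazine to -0.23 for H2-Aa with Kuiyangling, and none was called.

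Genes of the same pathway outside the 7 members did not share one pattern. Of 21 listed, 18 were in the table and 16 were tested, and edgeR called 0 in each of the 6 comparisons. The other class II chain genes were higher in control 2. H2-Ob, which with H2-Oa forms an inhibitor of the H2-DM editor, had 1 and 112 counts in controls 1 and 2, a ratio of 139 (95% exact binomial interval 24.5 to 5554). H2-Oa had 9 and 40 counts, H2-DMb2 had 8 and 98, and H2-Eb2 had 2 and 26. The protease Ctss, which trims the invariant chain, was at 323 and 479 CPM in controls 1 and 2, and Rfx5, an X box binding factor, at 21.7 and 13.5 CPM. Over the 16 genes the median ratio of the controls was 1.13.

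The protease Lgmn, which processes antigens in endosomes, averaged higher in the DSS model than in control, with 165 and 110 CPM in the DSS model and 43.1 and 33.3 CPM in control. Its log2 change was 1.85 (SE 0.42, edgeR adjusted p = 0.119). Cd83, which keeps class II molecules at the surface, had 2.08 and 3.18 CPM in the DSS model and 5.45 and 14.5 CPM in control, a log2 change of -1.92 (SE 0.49, edgeR adjusted p = 0.151). DESeq2 called both in this comparison and Lgmn also with each agent against control, limma called neither, and the groups did not overlap for either gene, as for 27.1% of all genes upward and 26.3% downward. In edgeR, 2 of the 16 had an unadjusted p under 0.05 in this comparison, 3 with Kuiyangling against control and 2 with mesalazine against control. Of all 13381 genes, 1987, 1376 and 2675 had one in these comparisons. None of the 16 had one in the other 3 comparisons. There 476 and 735 of all genes had one for Kuiyangling and mesalazine against the DSS model, and 254 between the agents.

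The markers of class II-bearing cells were then set beside these values. The B cell list had 12 of 14 genes in the table and summed to 3.40 and 4.72 CPM with Kuiyangling, 2.69 and 4.03 CPM with mesalazine, 2.45 and 6.83 CPM in the DSS model, and 1.49 and 65.3 CPM in controls 1 and 2. All 12 were higher in control 2 than in control 1, where 6 had 0 counts, among them Cr2 and Pax5. Pax5, a transcription factor that sets B cell identity, had 0 and 80 counts in controls 1 and 2, at least 33.2-fold higher in control 2 over a floor of 3 counts in 1 library. The B cell sum, like the class II sum, thus had control 1 lowest, control 2 highest and all 6 DSS libraries between.

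The other cell lists differed less between the controls. The T cell list (9 genes in the table) was at 15.9 and 47.7 CPM in controls 1 and 2 and at 13.6 to 27.4 CPM in the DSS libraries. The dendritic cell list (10 genes) was at 3.12 and 10.1 CPM in controls 1 and 2, with all 6 DSS libraries between at 4.65 to 6.56 CPM. The macrophage and monocyte list (12 genes) was at 95.5 and 171 CPM in controls 1 and 2, with 5 of the 6 DSS libraries between. The pan-leukocyte list (4 genes) was at 24.7 and 102 CPM, with all 6 DSS libraries between at 26.0 to 50.5 CPM. Epithelial markers summed to 37875 and 35640 CPM in controls 1 and 2, a ratio of 0.941. The part of these cells in the class II values was not tested.

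**Figure D4:**
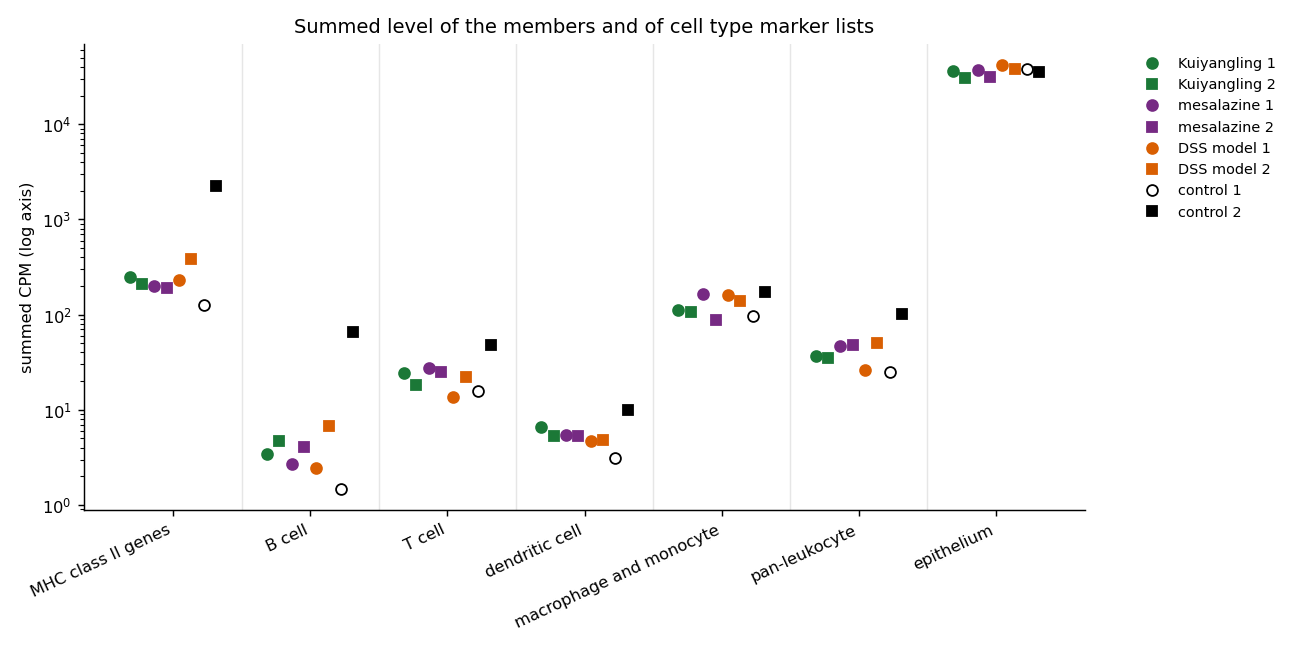
Summed CPM (log axis) of the 7 class II genes and of the cell type marker lists in every library, with each point 1 animal. The class II genes and the B cell, dendritic cell and pan-leukocyte lists share the order of control 1 lowest, the 6 DSS libraries between and control 2 highest, while the epithelial sum stays between 30731 and 41764 CPM.

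The controls also stood apart in genes of other lists. Hoxb13, a homeobox gene of the hindmost gut, was at 5.88 and 23.2 CPM with Kuiyangling, 0.212 and 0.642 CPM with mesalazine, 12.9 and 2.98 CPM in the DSS model, and 19.9 and 175 CPM in controls 1 and 2. Hoxb13 was highest in control 2. It was also called lower with mesalazine against control (edgeR adjusted p = 0.0414), where 0.673% of all genes were called. DESeq2 called it lower there as well, and limma did not. Smooth muscle markers (6 genes) summed to 13.1 to 56.8 CPM in the DSS libraries and to 85.2 and 24.0 CPM in controls 1 and 2, so that here control 1 lay outside the range of the DSS libraries and control 2 within it. The part of these differences in the class II values was not tested.

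Interferon gamma is the classical inducer of Ciita, and the genes of its pathway were examined in the same libraries. Ifng had 1 and 0 counts with Kuiyangling, 1 and 0 counts with mesalazine, 4 and 51 counts in the DSS model, and 2 and 18 counts in controls 1 and 2. Gbp2, an interferon-induced GTPase, had 31.4 and 15.2 CPM with Kuiyangling, 9.27 and 27.1 CPM with mesalazine, 60.8 and 149 CPM in the DSS model, and 30.8 and 514 CPM in controls 1 and 2. Socs1, a feedback inhibitor of the pathway, had 7.55 and 4.41 CPM with Kuiyangling, 8.35 and 6.60 CPM with mesalazine, 27.4 and 37.6 CPM in the DSS model, and 5.0 and 40.7 CPM in controls 1 and 2. The 2 control animals differed for these genes in the direction of the class II genes. For Gbp2 and Socs1, as for Cxcl9 below, both model animals stood above all 4 treated animals. The share of all genes with that order was not counted.

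The T cell attracting chemokine Cxcl9 had 3.03 and 5.09 CPM with Kuiyangling, 5.10 and 5.66 CPM with mesalazine, 7.48 and 42.0 CPM in the DSS model, and 2.63 and 16.8 CPM in controls 1 and 2. Of the 12 genes of this list, all tested, edgeR called 0 in each of the 6 comparisons. Against the DSS model the median was -0.91 with Kuiyangling and -1.26 with mesalazine, and in each comparison both treated libraries lay below both model libraries for 8 of 12 genes, against 21.1% of all genes with Kuiyangling and 13.8% with mesalazine. An unadjusted p under 0.05 was reached by 5 of 12 with Kuiyangling and 8 of 12 with mesalazine, and by 476 and 735 of all 13381 genes. Irf8, a transcription factor, had log2 changes of -0.93 (SE 0.29, edgeR adjusted p = 0.996) with Kuiyangling and -1.05 (SE 0.29, edgeR adjusted p = 0.523) with mesalazine. DESeq2 called none of the 12 against the DSS model, and limma none of the 11 it tested, while DESeq2 called Gbp2 lower with mesalazine against control.

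MHC class I presentation genes, which serve CD8+ T cells, gave a similar description. Against the DSS model the median of the 13 tested was -0.62 with Kuiyangling and -0.85 with mesalazine, and both treated libraries lay below both model libraries for 8 of 13 genes with Kuiyangling and 10 of 13 with mesalazine, against 21.1% of all genes with Kuiyangling and 13.8% with mesalazine. edgeR called 0 of 13 in each of the 6 comparisons, with 5 of 13 at an unadjusted p under 0.05 for Kuiyangling and 6 of 13 for mesalazine against the DSS model, against 476 and 735 of all 13381 genes. Tap1, the peptide transporter, had 136 and 64.7 CPM with Kuiyangling, 59.0 and 84.9 CPM with mesalazine, 237 and 219 CPM in the DSS model, and 154 and 437 CPM in controls 1 and 2. Its log2 changes were -1.19 (SE 0.49, edgeR adjusted p = 0.996) and -1.66 (SE 0.50, edgeR adjusted p = 0.599), and DESeq2 called it lower with mesalazine and not with Kuiyangling. Against control, DESeq2 called Tap1 and Nlrc5 lower with both agents and Tap2 lower with mesalazine, and limma called none of the 13. H2-K1, the classical class I heavy chain gene, had a log2 change of 0.11 with Kuiyangling (SE 0.39, edgeR adjusted p = 0.999). Between the controls the class I list had a median ratio of 2.03, with Nlrc5, the class I counterpart of Ciita, highest at 4.35.

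**Figure D5:**
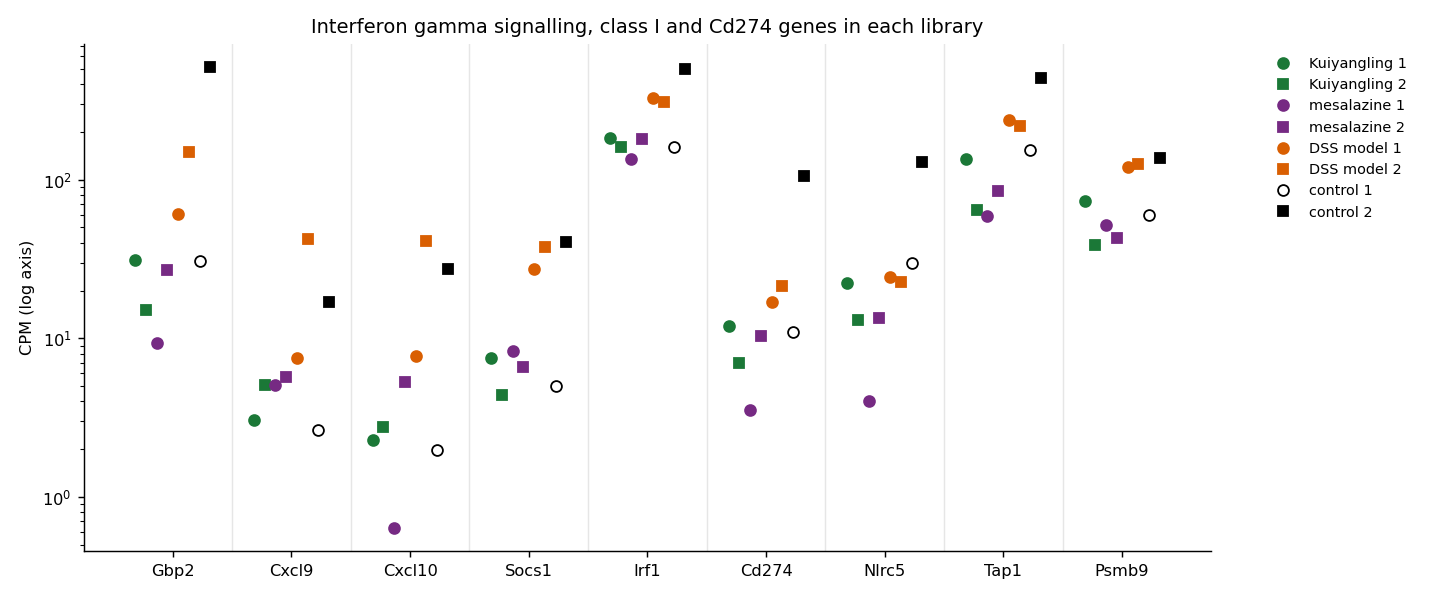
Level (CPM, log axis) of 5 genes of the interferon gamma list, of Cd274 and of 3 class I presentation genes in every library, with each point 1 animal. Gbp2, Cxcl9, Socs1 and Tap1 are higher in both DSS model libraries than in all 4 libraries of treated mice. The share of all genes with that order was not counted. Each of these genes is higher in control 2 than in control 1.

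Genes of the contact between class II-bearing cells and T cells showed the split of the controls as well. Each of the 12 listed genes was higher in control 2, and their summed levels were 20.7 and 136 CPM in controls 1 and 2. Cd274, the inhibitory ligand PD-L1, made most of this, with 10.9 and 105 CPM in controls 1 and 2 and 3.54 to 21.2 CPM in the DSS libraries. Cd40, a receptor through which T cells activate B cells and dendritic cells, had 2 and 28 counts in controls 1 and 2. edgeR called 0 of the 8 tested in each comparison. An unadjusted p under 0.05 was reached by 1 of the 8 between the DSS model and control, and by 1987 of all 13381 genes. With each agent against control 2 of the 8 reached it, against 1376 of all genes with Kuiyangling and 2675 with mesalazine. Against the DSS model 0 of the 8 did with either agent, against 476 and 735 of all genes. DESeq2, fitted to all 12, called none, and limma tested 2 of them and called none.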

How the data were processed

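Per the labels' protocols, total RNA with an integrity number of at least 7 was made into stranded mRNA libraries with a TruSeq kit. Trimmomatic and HISAT2 are named in the submitters' processing notes. The build, annotation, read counter and strand setting used by the authors are not given in the sources used here. The deposited counts are the authors' whole reads per gene. FPKM as deposited divide these counts by 1 length per gene and by the library total, a relation checked on the values. Group and replicate came from the column headers, in which 1 mesalazine column is spelled differently and was taken by its number.

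Counts were fitted with edgeR 4.0.16 in R 4.3.3 after filterByExpr by group and TMM scaling, with 1 mean per group over all 8 libraries. Quasi-likelihood F tests were adjusted by Benjamini-Hochberg over 13381 genes. The common biological coefficient of variation was 0.287. The method was tested on simulated counts. A prior count of 2 went into log2 CPM of single libraries, and ratios of the controls are of CPM, with exact binomial intervals. Alternatives were DESeq2 1.42.0, limma 3.58.1 on log2(FPKM + 1) and log2(FPKM + 0.1) for genes of at least 1 FPKM in 2 libraries or all genes, no filter, no TMM, only the 4 libraries compared, a replicate block, a gene length offset and each library left out. Promoter words were counted in RefSeq windows of GRCm38.p6, a build used for these windows only.

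The members and gene lists were chosen with earlier results of these data known, so their patterns are no independent evidence. Members were named in every comparison, genes of the lists by their values (some are not reported here), and the 10 genes most like the members' mean over 8 and over 7 libraries by Pearson r. Replicates of a group differed beyond counting noise (chi-square per degree of freedom of 36.6 to 219). With 2 animals a group, p-values rest on a spread shared across the 4 groups.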

Additional observations from a re-analysis of the deposited data

How the results depend on the processing

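Of 378 log2 changes of the members recomputed with no single library left out, 361 kept their direction and side of the threshold. Another 11 became called and 6 reversed. With a library left out, 31 of 336 reversed. Without the filter on low counts, edgeR called 1 member for the DSS model against control (Cd74, adjusted p = 0.0375), 4 for Kuiyangling against control and 6 for mesalazine against control, against 0 in each with the filter, and 487, 451 and 1090 of all 17353 genes. With each library left out in turn, the members called ran from 0 to 4, 0 to 7 and 0 to 7 in these comparisons, and were 0 in the other 3. The replicate block called 0 members in all 6 comparisons. Of all 13381 genes it called 50 for the DSS model, 65 for Kuiyangling and 132 for mesalazine against control, and 0 in the other 3. Deviations of same-numbered libraries correlated at -0.311 to 0.162. H2-Aa with Kuiyangling against the DSS model reversed to 0.026 under the replicate block, 0.043 with the gene length offset, 0.0049 in limma on log2(FPKM + 1) with and without its filter, and 0.0074 on log2(FPKM + 0.1). H2-DMa with Kuiyangling against mesalazine reversed to -0.16 with the length offset. The cause was not tested.

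With a library left out, log2 changes that reversed ran over the following ranges. For the DSS model against control they were -3.18 to 1.19 for Cd74, -2.12 to 2.68 for Ciita, -2.99 to 1.24 for H2-Aa, -2.72 to 1.47 for H2-Ab1, -2.38 to 1.11 for H2-Eb1, -1.51 to 1.24 for H2-DMa and -2.29 to 2.13 for H2-DMb1. For Kuiyangling against control they were -3.56 to 0.81 for Cd74, -3.33 to 1.47 for Ciita, -3.22 to 1.01 for H2-Aa, -3.40 to 0.80 for H2-Ab1, -2.71 to 0.77 for H2-Eb1, -2.02 to 0.73 for H2-DMa and -3.37 to 1.05 for H2-DMb1. For mesalazine against control they were -3.92 to 0.45 for Cd74, -3.73 to 1.07 for Ciita, -3.37 to 0.87 for H2-Aa, -3.53 to 0.68 for H2-Ab1, -2.76 to 0.74 for H2-Eb1, -2.09 to 0.66 for H2-DMa and -3.44 to 0.98 for H2-DMb1. In these 3 comparisons every reversal came without control 2. H2-Aa ran -0.69 to 0.44 with Kuiyangling and -0.83 to 0.30 with mesalazine against the DSS model, reversed without DSS model 2. Between Kuiyangling and mesalazine the ranges were -0.069 to 0.31 for H2-Aa, -0.087 to 0.28 for H2-Ab1, -0.19 to 0.21 for H2-Eb1, -0.30 to 0.34 for H2-DMa and -0.13 to 0.27 for H2-DMb1.

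The settings that left out no single library include the fits of only the 4 libraries compared. Over these settings, the number of all genes called ran from 2 to 487 for the DSS model, 1 to 451 for Kuiyangling and 4 to 1090 for mesalazine against control. Against the DSS model it reached 21 for Kuiyangling, in the fit of only the 4 libraries compared, and 104 for mesalazine. With a library left out it ran from 1 to 159, 1 to 171 and 1 to 2717 against control. SEs of the members ran from 0.67 for H2-DMa to 1.05 for Ciita with mesalazine against the DSS model, in a spread that all 4 groups share. GENCODE exon lengths, an alternative chosen after seeing the data, put the median over libraries at 333 for Cd74, 70.9 for H2-Aa and 95.1 for H2-Eb1 per 100 FPKM of H2-Ab1, against 184, 111 and 51.5 with the deposited lengths.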
